A study of Homo sapiens with 6 samples.

Results

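The thioredoxin system and the antioxidant targets of the transcription factor NRF2 were described through 9 genes: TXNIP, ARRDC4, TXN, TXNRD1, SRXN1, NQO1, HMOX1, GCLM and SLC7A11. Members were the rows of the deposited tables that carry these symbols. All 9 were found among the 21519 genes of the co-culture table and among the 9450 genes of the knockdown table, which together hold 21648 genes. The cells were DLD1, an established human colorectal cancer line. Wild-type DLD1 cells were co-cultured with fibroblasts called S-CAFs (library S-CAFs-w13), and the library set against it was DLD1-W13CM, also labelled wild type. The treatment text names co-cultures with S-CAFs and with CAFs (cancer-associated fibroblasts) for the RNA-seq, but the title of DLD1-W13CM names no partner cell and does not explain CM or W13, so what DLD1-W13CM cells were grown with is not settled here. A second set of DLD1 cells carried a stable METTL1 knockdown (labelled sh2) and was set against control cells (labelled sh-NT). METTL1 is the methyltransferase that places 7-methylguanosine (m7G) inside RNA. For each of these lines unselected input RNA and an m7G immunoprecipitate (IP) were sequenced. The knockdown table has a row for each listed m7G peak, so a gene without a listed peak is absent from it whatever its level. The design text speaks of replications of these lines, while 1 input and 1 IP library of each were analysed here. Each of the 6 libraries was the only one of its group, so the values below describe libraries, and no replicate error, SD or test between conditions could be computed.

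Thioredoxin (TXN) is a small protein that reduces disulfides in other proteins, and thioredoxin reductase (TXNRD1) recharges it with electrons from NADPH. TXNIP binds thioredoxin and blocks it. Like its relative ARRDC4 it belongs to the alpha-arrestins, and TXNIP and ARRDC4 also limit glucose uptake. Both genes are known targets of the glucose-sensing factors MondoA and ChREBP. NRF2, encoded by NFE2L2, is held low by KEAP1, which is inactivated by oxidants and electrophiles; freed NRF2 binds antioxidant response elements and raises the genes for TXN, TXNRD1, SRXN1, NQO1, HMOX1, GCLM and SLC7A11.

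Levels are given in FPKM, fragments normalised to the length of the gene and an effective size of the library. From the steps in the FPKM values, 6410837 reads were recovered for S-CAFs-w13 and 5857127 for DLD1-W13CM, and 8859200 for knockdown input and 7851493 for control input. The effective sizes behind the co-culture FPKM ran the other way, at 6215547 for S-CAFs-w13 and 6337932 for DLD1-W13CM. Co-culture folds as deposited are therefore higher than folds scaled to the recovered reads would be. A fold is the plain FPKM ratio, with a 95% interval in parentheses that covers counting error only. A gene is said to rise or fall where log2((FPKM + 1)/(FPKM + 1)) passed 2-fold, among genes averaging 1 FPKM or more over the libraries compared; this log2 ratio understates the change of low genes. The colon epithelial markers were checked against the DLD1 label: 11 of 12 were in the co-culture table, with GPA33 listed at 0 in DLD1-W13CM and CDX1 not in the table, and EPCAM stood at 149 FPKM in S-CAFs-w13 and 154 FPKM in DLD1-W13CM. Their summed level was 2950.3 FPKM in S-CAFs-w13 and 1994 FPKM in DLD1-W13CM, and of the 9 past the filter on low values CEACAM5 rose and CDX2 fell in S-CAFs-w13. Of the 12, 7 were present in the knockdown table, and the absence of the others shows only that they had no listed m7G peak. The summed level of the 7 was 2982 FPKM in knockdown input and 2557 FPKM in control input, and MUC13 fell in knockdown input. The part of these markers in the results was not tested. Of 14 fibroblast markers, 6 were in the co-culture table and 0 in the knockdown table. None of the 6 was at 0, but their summed level was 5.13 FPKM in S-CAFs-w13 and 5.51 FPKM in DLD1-W13CM. COL1A1 stood at 0.229 FPKM in S-CAFs-w13 and 0.0482 FPKM in DLD1-W13CM. METTL1 stood at 3.28 FPKM in knockdown input and 5.80 FPKM in control input, 1.77-fold lower (1.37 to 2.29), short of the 2-fold limit. It also fell to 1.78 FPKM in S-CAFs-w13, against 4.82 FPKM in DLD1-W13CM.

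TXNIP was the member that moved in the co-culture. It stood at 127 FPKM in S-CAFs-w13 and 16.9 FPKM in DLD1-W13CM, from 2857 recovered reads in S-CAFs-w13 and 389 in DLD1-W13CM. The gene rose 7.49-fold in S-CAFs-w13 (6.73 to 8.35), a log2 ratio of 2.83, which placed it 64th from the top of 14739 genes. The authors' deposited table gave it a log2 fold change of 2.76. TXNIP lies on chromosome 1 at 145992435 to 145996579 (GRCh38.p14, RefSeq), with no other annotated gene over it. In bulk RNA, fewer cells of a type and less RNA per cell cannot be told apart.

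ARRDC4, a related alpha-arrestin, did not pass 2-fold. It stood at 6.56 FPKM in S-CAFs-w13 and 4.30 FPKM in DLD1-W13CM, 1.52-fold higher (1.19 to 1.96) from 166 reads in S-CAFs-w13 and 111 in DLD1-W13CM. The ratio of the TXNIP level to the ARRDC4 level was thus 19.3 in S-CAFs-w13 and 3.94 in DLD1-W13CM.

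**Figure D1:**
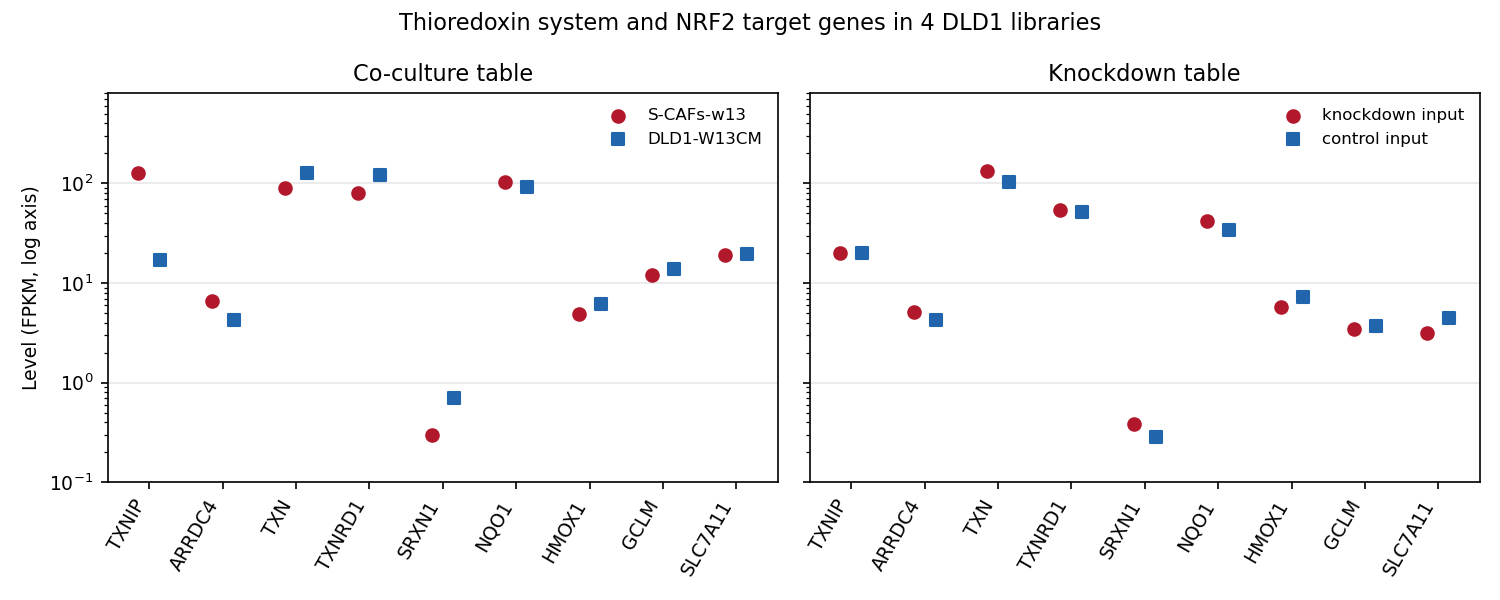
Level of each of the 9 genes in the 4 expression libraries, in FPKM on a log axis, with circles for S-CAFs-w13 and knockdown input and squares for DLD1-W13CM and control input. The wide gap is that of TXNIP in the co-culture table, at 127 FPKM in S-CAFs-w13 and 16.9 FPKM in DLD1-W13CM; SRXN1 lies under 1 FPKM in all 4 libraries.

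The regions upstream of the related genes TXNIP and ARRDC4 are shown as a description. Whether they have a part in the unlike folds of these genes was not tested. Each run is the 250 bases before the outermost RefSeq start, 5′ to 3′ on the gene's strand, in lower case, from RefSeq's GRCh38.p14 promoter table. Capitals mark a carbohydrate response element (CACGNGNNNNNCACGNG, or CNCGTGNNNNNCNCGTG on the other strand), a CCAAT box (CCAAT or ATTGG) or an E-box (CACGTG). TXNIP is chr1:145996580-145996829 on the minus strand and ARRDC4 is chr15:97960453-97960702 on the plus strand.
TXNIP: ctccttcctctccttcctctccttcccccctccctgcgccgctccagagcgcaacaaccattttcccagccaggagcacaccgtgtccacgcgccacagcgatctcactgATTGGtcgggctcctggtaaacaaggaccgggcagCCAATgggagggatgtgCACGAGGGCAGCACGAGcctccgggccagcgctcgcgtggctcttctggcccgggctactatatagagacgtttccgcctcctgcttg
ARRDC4: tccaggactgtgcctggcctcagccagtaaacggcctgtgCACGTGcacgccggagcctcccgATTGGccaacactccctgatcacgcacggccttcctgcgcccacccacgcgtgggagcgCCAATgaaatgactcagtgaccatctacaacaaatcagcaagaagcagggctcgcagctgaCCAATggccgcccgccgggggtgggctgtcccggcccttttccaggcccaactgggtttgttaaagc
TXNIP held a carbohydrate response element, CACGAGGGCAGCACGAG, from -88 to -72 relative to this start, 145996579, and CCAAT boxes from -140 to -136 and from -105 to -101. The window before its other start in the promoter table, 145995744, is not shown and held none of these motifs. ARRDC4 held no match to the carbohydrate response element as spelled here; it held an E-box from -210 to -205 and CCAAT boxes beginning at -187, -128 and -67. The motifs overlap in no place in these runs. Among all 35116 promoter windows of the same length, 16 held the carbohydrate response element, or 0.0456%, against 6.34% for the E-box and 32.0% for the CCAAT box. The motifs were chosen with the data known, and a match is a description of letters, not of binding.

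The 16 windows with a carbohydrate response element belonged to 16 genes, of which 10 were measured in the co-culture table. The motif was chosen with the rise of TXNIP known, so these genes are listed as a description and their count supports nothing. Apart from TXNIP, their log2 ratios ran from -0.88 for RAN to 1.16 for GFPT1, and 3 of them were below 0. GFPT1, which makes the entry step of the hexosamine pathway, stood at 77.1 FPKM in S-CAFs-w13 and 33.9 FPKM in DLD1-W13CM. RAN, a nuclear transport GTPase with such a window, stood at 45.9 FPKM in S-CAFs-w13 and 85.1 FPKM in DLD1-W13CM.

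The thioredoxin that TXNIP binds went the other way by a smaller amount. TXN stood at 90.0 FPKM in S-CAFs-w13 and 127 FPKM in DLD1-W13CM, 1.41-fold lower (1.27 to 1.56) from 639 reads in S-CAFs-w13 and 917 in DLD1-W13CM. TXNRD1, its reductase, stood at 80.0 FPKM in S-CAFs-w13 and 123 FPKM in DLD1-W13CM, 1.54-fold lower (1.48 to 1.61). Neither passed 2-fold. The level of TXNIP over that of TXN was 1.41 in S-CAFs-w13 and 0.134 in DLD1-W13CM, while the level of TXNRD1 over that of TXN was 0.889 in S-CAFs-w13 and 0.974 in DLD1-W13CM. SRXN1, sulfiredoxin, which repairs over-oxidised peroxiredoxins, was barely detected, at 0.298 FPKM in S-CAFs-w13 and 0.702 FPKM in DLD1-W13CM. These rest on 5 reads in S-CAFs-w13 and 12 in DLD1-W13CM, and the interval of its ratio, 0.117 to 1.30, included no difference; with a mean under 1 FPKM it was the member left out by the filter on low values.

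The detoxifying and glutathione-supplying targets of NRF2 lay close together in the co-culture libraries. NQO1, a quinone reductase and common NRF2 readout, stood at 104 FPKM in S-CAFs-w13 and 93.0 FPKM in DLD1-W13CM, 1.12-fold higher (1.06 to 1.20). The direction of NQO1 depends on scaling: its log2 ratio of 0.17 was 0.02 on the authors' scaling and -0.06 without mitochondrial genes. HMOX1, which breaks down heme, stood at 4.88 FPKM in S-CAFs-w13 and 6.23 FPKM in DLD1-W13CM, with a ratio of 0.784 (0.569 to 1.07). On the FPKM as deposited the interval of HMOX1 included no difference, and the authors' log2 fold change for it was -0.50.

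GCLM, the modifier subunit of the enzyme that starts glutathione synthesis, stood at 12.0 FPKM in S-CAFs-w13 and 13.9 FPKM in DLD1-W13CM, 1.15-fold lower (1.01 to 1.32). SLC7A11, the cystine carrier of system xc-, stood at 19.1 FPKM in S-CAFs-w13 and 19.4 FPKM in DLD1-W13CM, a ratio of 0.986 (0.908 to 1.07). With 1146 reads in S-CAFs-w13 and 1185 in DLD1-W13CM, SLC7A11 was among the more precisely measured members. On the FPKM as deposited its interval included no difference, and the authors' log2 fold change for it was -0.16. In RefSeq (GRCh38.p14) TXN lies on chromosome 9 at 110243810 to 110256507, TXNRD1 on chromosome 12 at 104215779 to 104350307, and NQO1 on chromosome 16 at 69709401 to 69726560. ARRDC4 lies on chromosome 15 at 97960703 to 97973833, HMOX1 on chromosome 22 at 35381096 to 35394207, and SRXN1 on chromosome 20 at 646615 to 653200. GCLM lies on chromosome 1 at 93885199 to 93909430 and SLC7A11 on chromosome 4 at 138164097 to 138242349. TXNRD1 overlaps the annotated genes TXNRD1-AS1, RPL18AP3 and EID3, and SRXN1 overlaps LOC107985423. NQO1 overlaps NQO1-AS1, and SLC7A11 overlaps SLC7A11-AS1. How reads from these overlaps were counted is not known here.

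Of the 8 members that passed the filter, 1 rose and 0 fell in S-CAFs-w13, where 9.08% of all 14739 genes rose and 7.92% fell. The counting interval lay above no difference for 3 members (TXNIP, ARRDC4 and NQO1) and below it for 3 (TXN, TXNRD1 and GCLM), beside 28.8% above and 25.9% below among all genes with an interval. Both counts are small, and the share of members past 2-fold lay near the background. The median log2 ratio of the 8 was -0.10, beside 0.02 for all genes. On the authors' scaling, which lowers every log2 ratio by 0.14, the whole table held 988 genes that rose and 1545 that fell, against 1338 and 1167 as deposited. TXNIP's log2 ratio was 2.69 on that scaling and 2.62 without mitochondrial genes. The interval counts above are on the FPKM as deposited and depend on scaling. On the authors' scaling the intervals of HMOX1 and SLC7A11 would lie below no difference, and that of NQO1 would include it.

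Other RNA classes also differed between these libraries. The 13 mitochondrial mRNAs summed to 27838 FPKM in S-CAFs-w13 and 71011 FPKM in DLD1-W13CM, and all 13 were lower. The nuclear RNA MALAT1 stood at 5201 FPKM in S-CAFs-w13 and 1014 FPKM in DLD1-W13CM, and NEAT1 at 253 FPKM in S-CAFs-w13 and 21.2 FPKM in DLD1-W13CM. Their part in the TXNIP result was not tested.

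**Figure D2:**
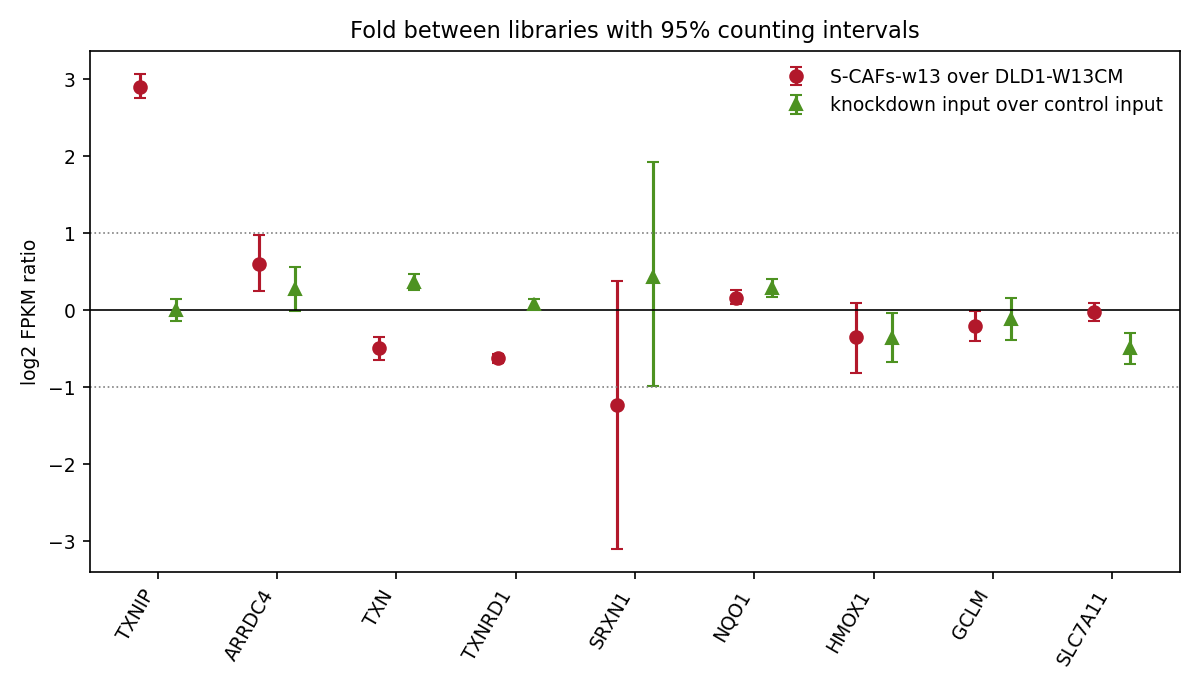
Fold of each of the 9 genes as a log2 FPKM ratio, for S-CAFs-w13 over DLD1-W13CM (circles) and knockdown input over control input (triangles), with 95% counting intervals as bars and dotted lines at 2-fold. TXNIP lies at 7.49-fold in the co-culture and at 1.00-fold in the knockdown, and the wide bars of SRXN1 come from 5 to 12 reads a library.

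Each fixed list of related genes was read by its counts, to be set beside the 9.08% of all genes that rose and the 7.92% that fell. The lists were chosen with earlier results of these data known, and their counts are small. In the list of other thioredoxin and peroxiredoxin genes, 1 of 21 measured members rose and 3 fell, with a median log2 ratio of -0.15. SESN3, a sestrin, rose to 7.67 FPKM in S-CAFs-w13, against 2.30 FPKM in DLD1-W13CM. RRM2, the ribonucleotide reductase subunit that carries the enzyme's radical, fell 4.74-fold (4.21 to 5.34), to 10.1 FPKM in S-CAFs-w13, against 48.0 FPKM in DLD1-W13CM; it is also a gene of DNA replication. RRM1, the subunit whose cysteines are reduced by thioredoxin or glutaredoxin, did not pass 2-fold, at 43.4 FPKM in S-CAFs-w13 and 65.3 FPKM in DLD1-W13CM, and was named after its values were seen. PRDX4, the peroxiredoxin of the endoplasmic reticulum, fell 3.30-fold (2.52 to 4.37), with 71 reads in S-CAFs-w13 and 239 reads in DLD1-W13CM. MSRB1, a selenoprotein that reduces oxidised methionine, fell to 3.95 FPKM in S-CAFs-w13, against 11.5 FPKM in DLD1-W13CM. The most abundant of the list did not pass 2-fold: PRDX1 stood at 169.6 FPKM in S-CAFs-w13 and 205 FPKM in DLD1-W13CM, PRDX5 at 76.6 FPKM in S-CAFs-w13 and 66.6 FPKM in DLD1-W13CM, and PRDX2 at 50.1 FPKM in S-CAFs-w13 and 64.8 FPKM in DLD1-W13CM.

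Among other NRF2 targets, 4 of 30 measured members rose and 0 fell, with a median log2 ratio of 0.16. FTL, the light chain of the iron store ferritin, rose to 1073 FPKM in S-CAFs-w13, against 429.9 FPKM in DLD1-W13CM, a log2 ratio of 1.32. The ferritin heavy chain FTH1 stood at 973 FPKM in S-CAFs-w13 and 1056 FPKM in DLD1-W13CM. ABCC3, an exporter of conjugates, rose 2.82-fold (2.42 to 3.31), at 10.2 FPKM in S-CAFs-w13 and 3.61 FPKM in DLD1-W13CM. The pentose phosphate enzyme TKT stood at 63.1 FPKM in S-CAFs-w13 and 28.8 FPKM in DLD1-W13CM, and UGDH, which makes UDP-glucuronate, at 79.9 FPKM in S-CAFs-w13 and 38.3 FPKM in DLD1-W13CM. TKT and UGDH were past 2-fold as deposited but not on the authors' scaling, where their log2 ratios were 0.96 and 0.90.

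Of 16 measured NRF2 regulators, 0 rose and 1 fell, with a median log2 ratio of -0.13. KEAP1, the adaptor that targets NRF2 for degradation, fell 2.76-fold (2.27 to 3.38), to 5.90 FPKM in S-CAFs-w13, against 16.3 FPKM in DLD1-W13CM. NFE2L2 itself stood at 21.5 FPKM in S-CAFs-w13 and 22.2 FPKM in DLD1-W13CM, a ratio of 0.970 (0.879 to 1.07). SQSTM1, which binds KEAP1, stood at 49.1 FPKM in S-CAFs-w13 and 35.0 FPKM in DLD1-W13CM, a log2 ratio of 0.48, and the related factor NFE2L1 at 28.1 FPKM in S-CAFs-w13 and 31.0 FPKM in DLD1-W13CM.

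In the list of glutathione and glutaredoxin genes, 1 of 24 measured members rose and 3 fell, with a median log2 ratio of -0.07. SLC3A2, the heavy chain that pairs with SLC7A11, fell 2.06-fold (1.90 to 2.24), to 27.7 FPKM in S-CAFs-w13, against 57.1 FPKM in DLD1-W13CM. CHAC1 and CHAC2 both degrade glutathione and went in opposite directions. CHAC1 rose to 28.7 FPKM in S-CAFs-w13, against 13.4 FPKM in DLD1-W13CM, a call lost on the authors' scaling (log2 ratio 0.90). CHAC2 fell to 2.44 FPKM in S-CAFs-w13, against 7.29 FPKM in DLD1-W13CM, from 20 reads in S-CAFs-w13 and 61 in DLD1-W13CM. GLRX2, a mitochondrial glutaredoxin, fell to 1.73 FPKM in S-CAFs-w13, against 5.47 FPKM in DLD1-W13CM, from 14 reads in S-CAFs-w13 and 45 in DLD1-W13CM. The most abundant members did not pass 2-fold: GSTP1 stood at 53.5 FPKM in S-CAFs-w13 and 83.4 FPKM in DLD1-W13CM, glutathione reductase GSR at 63.1 FPKM in S-CAFs-w13 and 40.8 FPKM in DLD1-W13CM, and GPX4, which reduces lipid peroxides, at 51.2 FPKM in S-CAFs-w13 and 38.9 FPKM in DLD1-W13CM.

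The list of arrestin family and MondoA genes had 3 of 15 measured members that rose and 0 that fell, with a median log2 ratio of 0.13. DDIT4, an inhibitor of mTORC1, rose 10.6-fold (8.81 to 12.8), to 104 FPKM in S-CAFs-w13, against 9.81 FPKM in DLD1-W13CM. SLC2A3, the glucose carrier GLUT3, rose 6.92-fold (5.94 to 8.11), to 33.5 FPKM in S-CAFs-w13, against 4.84 FPKM in DLD1-W13CM. MLXIPL, the gene of ChREBP, rose 10.5-fold (6.25 to 18.7), to 5.48 FPKM in S-CAFs-w13, against 0.524 FPKM in DLD1-W13CM, where it rested on 16 reads. MLXIP, the gene of MondoA, stood at 5.41 FPKM in S-CAFs-w13 and 5.68 FPKM in DLD1-W13CM, and its partner MLX at 14.3 FPKM in S-CAFs-w13 and 14.5 FPKM in DLD1-W13CM; MLXIP and MLX were named after their values were seen. The glucose carrier SLC2A1, the most abundant of the list, stood at 179 FPKM in S-CAFs-w13 and 129 FPKM in DLD1-W13CM, and the hexokinase HK2 at 23.7 FPKM in S-CAFs-w13 and 21.5 FPKM in DLD1-W13CM.

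Of 10 measured genes for superoxide and hydrogen peroxide enzymes, 0 rose and 2 fell, with a median log2 ratio of -0.53. The mitochondrial superoxide dismutase SOD2 fell 2.28-fold (2.11 to 2.47), to 7.47 FPKM in S-CAFs-w13, against 17.1 FPKM in DLD1-W13CM. NOXO1, an organiser of the NADPH oxidase NOX1, fell to 0.447 FPKM in S-CAFs-w13, against 1.97 FPKM in DLD1-W13CM, from 6 reads in S-CAFs-w13 and 27 in DLD1-W13CM. The cytosolic dismutase SOD1 stood at 25.3 FPKM in S-CAFs-w13 and 41.5 FPKM in DLD1-W13CM, 1.64-fold lower (1.42 to 1.89), PARK7 at 27.7 FPKM in S-CAFs-w13 and 35.8 FPKM in DLD1-W13CM, and the oxidase subunit CYBA at 10.2 FPKM in S-CAFs-w13 and 19.8 FPKM in DLD1-W13CM.

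Of 14 measured genes of selenoprotein synthesis and selenoproteins, the class to which TXNRD1 belongs, 1 rose and 1 fell, with a median log2 ratio of 0.04. SEPHS2, which makes the selenium donor for selenocysteine, fell 3.73-fold (2.88 to 4.87), to 4.73 FPKM in S-CAFs-w13, against 17.6 FPKM in DLD1-W13CM. SELENOM rose to 3.03 FPKM in S-CAFs-w13, against 0.545 FPKM in DLD1-W13CM, from 60 reads in S-CAFs-w13 and 11 in DLD1-W13CM. SELENOF stood at 28.3 FPKM in S-CAFs-w13 and 30.2 FPKM in DLD1-W13CM, and SELENOT at 10.2 FPKM in S-CAFs-w13 and 13.4 FPKM in DLD1-W13CM. Over all 7 lists, 130 of 147 genes were measured; 10 rose and 10 fell, 7.69% each, which is near the shares among all genes.

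**Figure D3:**
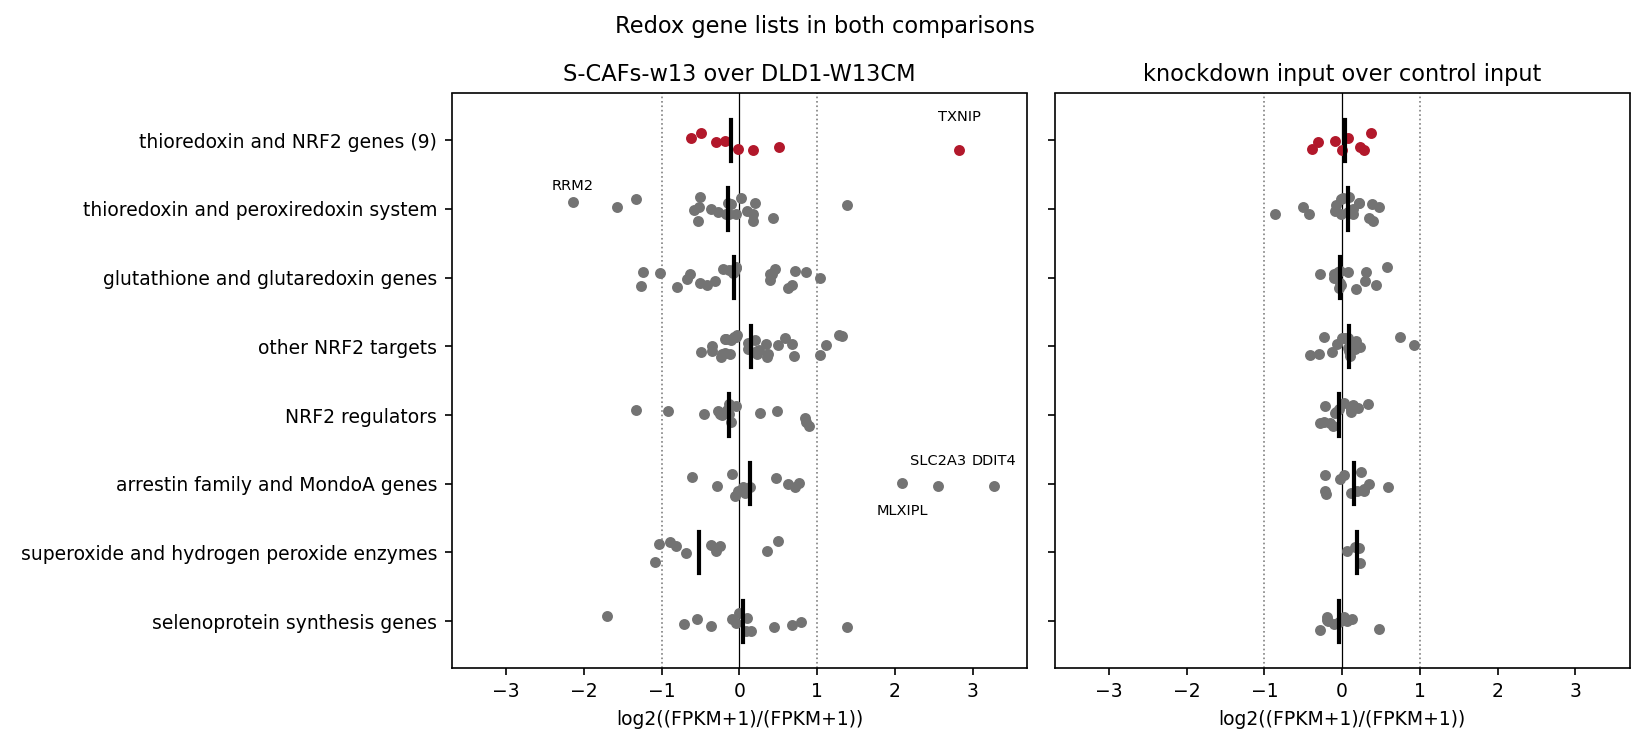
Log2((FPKM + 1)/(FPKM + 1)) of every measured gene of the 9-gene set and of 7 lists of related genes, for S-CAFs-w13 over DLD1-W13CM on the left and knockdown input over control input on the right; each point is a gene, black bars are medians and dotted lines mark 2-fold. In the co-culture 10 list genes lie past 2-fold on each side, and in the knockdown none does.

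In the METTL1 knockdown no member passed 2-fold. TXNIP stood at 20.0 FPKM in knockdown input and 19.9 FPKM in control input, a ratio of 1.00 (0.908 to 1.11) from 841 reads in knockdown input and 754 in control input. ARRDC4 stood at 5.13 FPKM in knockdown input and 4.23 FPKM in control input, with a ratio of 1.21 (0.997 to 1.48). For both alpha-arrestins the interval included no difference.

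Thioredoxin was slightly higher. TXN stood at 134 FPKM in knockdown input and 103 FPKM in control input, 1.29-fold higher (1.20 to 1.39), and TXNRD1 at 54.4 FPKM in knockdown input and 51.3 FPKM in control input, 1.06-fold higher (1.01 to 1.11). TXNIP over TXN was 0.149 in knockdown input and 0.192 in control input, so the level of TXN was above that of TXNIP in both lines. SRXN1 was again near the limit of detection, at 0.383 FPKM in knockdown input and 0.284 FPKM in control input, from 12 reads in knockdown input and 8 in control input.

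The NRF2 targets went in different directions in the knockdown. NQO1 stood at 41.8 FPKM in knockdown input and 34.2 FPKM in control input, 1.22-fold higher (1.13 to 1.32). HMOX1 stood at 5.72 FPKM in knockdown input and 7.32 FPKM in control input, 1.28-fold lower (1.03 to 1.59). SLC7A11 was the member furthest below its control, at 3.19 FPKM in knockdown input and 4.50 FPKM in control input, 1.41-fold lower (1.23 to 1.62). GCLM stood at 3.44 FPKM in knockdown input and 3.72 FPKM in control input, with a ratio of 0.925 (0.762 to 1.12), an interval that included no difference. The authors' deposited table gave log2 fold changes of 0.36 for TXN, 0.28 for NQO1 and -0.51 for SLC7A11, with adjusted p-values of 8.79e-10, 9.54e-06 and 8.08e-06, which cannot cover variation between cultures because each line had 1 input library.

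Of the 8 members that passed the filter in the knockdown table, 0 rose and 0 fell, where 0.429% of 8400 genes rose and 0.560% fell. These 8400 genes all had a listed m7G peak. Intervals lay above no difference for 3 members and below it for 2, beside 24.8% above and 23.1% below among all genes with an interval. The median log2 ratio of the members was 0.04, beside 0.01 for all genes. Of the 147 genes of the 7 fixed lists, 95 had a listed peak and so a row in this table, and 94 passed the filter. Of these, 0 rose and 0 fell, with a median of 0.07. The most abundant genes of the lists did not pass 2-fold: PRDX1 stood at 214 FPKM in knockdown input and 205 FPKM in control input, FTH1 at 1102 FPKM in knockdown input and 1025 FPKM in control input, FTL at 163 FPKM in knockdown input and 192 FPKM in control input, GSTP1 at 120.4 FPKM in knockdown input and 146 FPKM in control input, SLC2A1 at 131 FPKM in knockdown input and 108 FPKM in control input, and KEAP1 at 42.7 FPKM in knockdown input and 39.5 FPKM in control input.

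The comparisons share no library and were set side by side. On the FPKM as deposited, NQO1 was the member whose interval lay on the same side of no difference in both. That side is not stable to scaling in the co-culture. TXN and TXNRD1 had intervals on opposite sides, below in S-CAFs-w13 and above in knockdown input. METTL1 was lower in the numerator of both comparisons, at 2.71-fold (1.75 to 4.29) in S-CAFs-w13 and 1.77-fold in knockdown input, while TXNIP stood at 7.49-fold in S-CAFs-w13 and 1.00-fold in knockdown input.

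**Figure D4:**
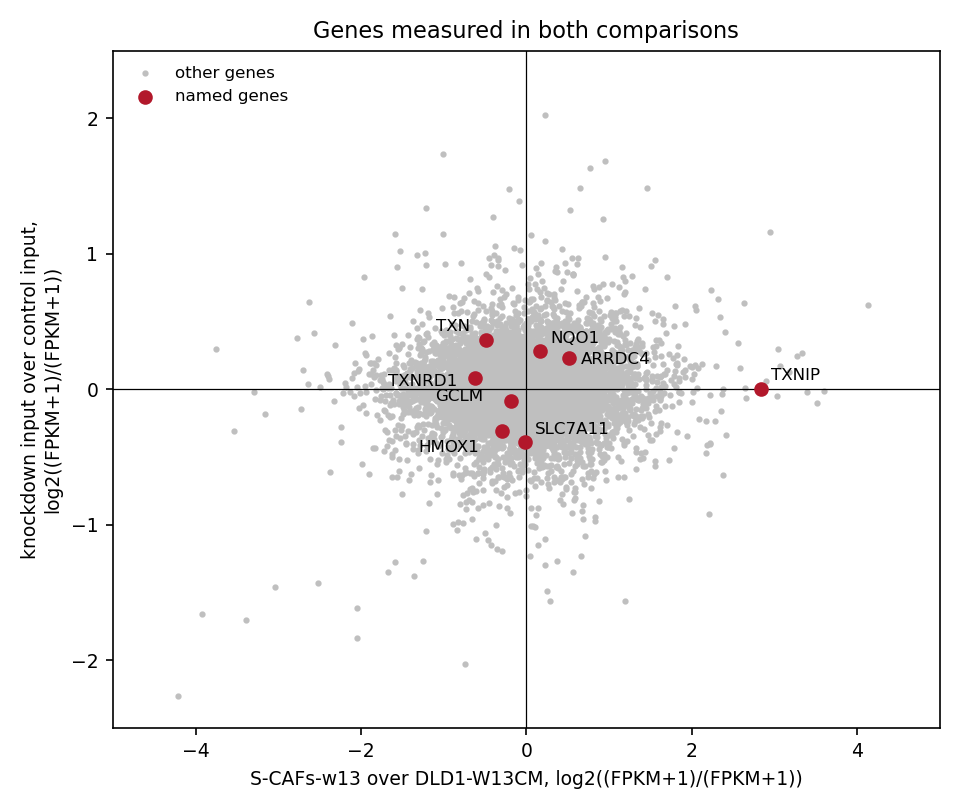
Log2((FPKM + 1)/(FPKM + 1)) of S-CAFs-w13 over DLD1-W13CM on the horizontal axis and of knockdown input over control input on the vertical axis, for 7945 genes averaging 1 FPKM or more in both tables; red points are the 8 of the 9 genes that passed this filter. TXNIP lies far to the right at 2.83 and at 0.00 on the vertical axis, and the other 7 lie within the bulk of grey points.

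The genes whose pair of log2 ratios lay nearest to that of TXNIP, by Euclidean distance among 7945 genes, were PER1, EEF1A2, IGFBP4, SAT1 and MSMO1. PER1, a circadian clock repressor, lay at a distance of 0.0877, with 18.3 FPKM in S-CAFs-w13 and 1.58 FPKM in DLD1-W13CM, and 7.75 FPKM in knockdown input and 7.40 FPKM in control input. SAT1, which acetylates polyamines, lay at 0.202, with 317 FPKM in S-CAFs-w13 and 38.0 FPKM in DLD1-W13CM. EEF1A2, a translation elongation factor, lay at 0.189, IGFBP4, which binds insulin-like growth factors, at 0.194, and MSMO1, an enzyme of cholesterol synthesis, at 0.283. The likeness rests on 2 ratios from 4 libraries.

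Each row of the knockdown table is a listed m7G peak, so the members found there have a peak by the make-up of the table. In the authors' deposited table no member's change in m7G passed an FDR of 0.05. Among all 9450 peaks 5.25% passed that limit and 16.1% had a p-value under 0.05; of the 9 members, 0 passed the FDR limit and 2, TXN and TXNRD1, had a p-value under 0.05. The table does not state the numerator of the change; it was read as knockdown over control, and the opposite reading would turn each sign. The p-values rest on 1 IP and 1 input library for each line. Positions are those of the authors' table, whose submitters' processing notes name the human builds GRCh38 and hg38. They give the outer ends of a peak, which can be made of separate blocks. The TXN peak had 3 blocks covering 381 bases. The peaks of ARRDC4, NQO1 and SRXN1 had 2 blocks each, covering 480, 389 and 391 bases, and the other members' peaks were single blocks.

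TXNRD1's peak lay in coding sequence on chromosome 12 at 104288814 to 104289084, and the authors' deposited table listed a log2 change of -0.987 with a p-value of 0.00562 and an FDR of 0.0955. TXN's peak, annotated to the 5′ UTR, lay on chromosome 9 at 110250833 to 110256640, and the authors' deposited table listed a log2 change of -0.220 with a p-value of 0.0126 and an FDR of 0.162. The reductase and its substrate thus had the smallest p-values of the 9. TXNIP's 5′ UTR peak, on chromosome 1 at 145996480 to 145996600, had, in the authors' deposited table, a fold enrichment of 4.47, above 16.3% of all peaks, a peak FDR of 0.117 and a log2 change of -0.263 (FDR 0.748). ARRDC4 had the peak with the highest fold enrichment of the members, on chromosome 15 at 97960698 to 97965608, with a fold enrichment of 30.4, above 86.7% of all peaks, and a log2 change of 0.409 (FDR 0.670) in the authors' deposited table.

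The other members had changes on either side of 0. In the authors' deposited table the log2 changes were 0.710 for GCLM (chromosome 1, 93909336 to 93909456), 0.0745 for HMOX1 (chromosome 22, 35381012 to 35381279), -0.0859 for NQO1 (chromosome 16, 69718456 to 69726742), -0.0915 for SLC7A11 (chromosome 4, 138242139 to 138242349) and -0.141 for SRXN1 (chromosome 20, 648892 to 653340), with FDRs from 0.670 to 0.679. The GCLM value, the largest of these, came from the peak with the lowest fold enrichment of the members, 3.60. Changes were below 0 for 6 members and above 0 for 3, with a median of -0.0915, beside 0.00433 for all peaks, and the median fold enrichment was 12.0, beside 12.4.

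Most of the members' peaks lay at gene starts. Of the 9 peaks, 8 had a block over the outermost RefSeq start of the gene, or 88.9%. Among the 8511 peaks with a matched RefSeq gene 4167 did, or 49.0%. TXNRD1's peak was the exception; it began at 104288814, downstream of both TXNRD1 starts in the promoter table, 104215779 and 104287032. By the authors' annotation 6 members' peaks were in the 5′ UTR and 3 in coding sequence, 66.7% and 33.3%, beside 49.5% and 29.5% of all peaks. For a peak at a gene start, m7G inside the RNA and m7G at its 5′ end cannot be told apart from these values.

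**Figure D5:**
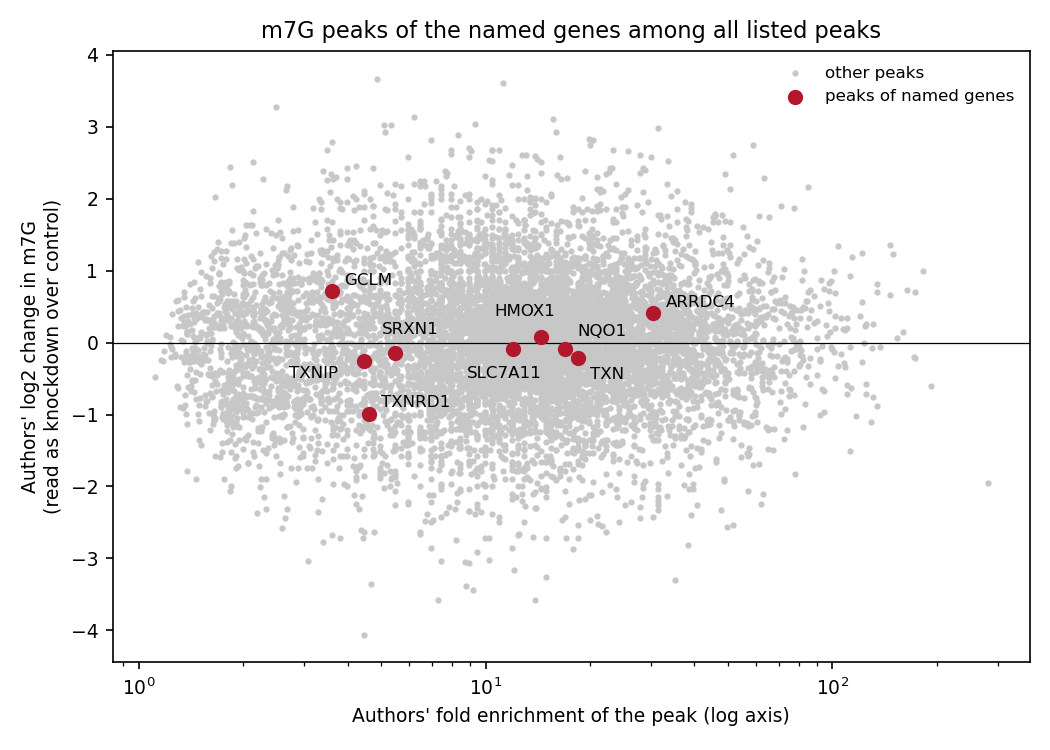
Log2 change in m7G from the authors' deposited table, read as knockdown over control, against the fold enrichment of each peak on a log axis, for all 9450 listed peaks (grey) and the peaks of the 9 genes (red). TXNRD1 lies lowest at -0.987 and GCLM highest at 0.710, both at low enrichment, and ARRDC4 lies furthest right at 30.4.

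In the 7 lists, 9 of 95 peaks passed the same FDR limit, or 9.47%, beside 5.25% of all peaks. The thioredoxin and peroxiredoxin list held 4 of them, all with lower m7G: PRDX1 with a log2 change of -0.417, PRDX6 with -0.698, TXNL1 with -0.782 and mitochondrial thioredoxin TXN2 with -0.704, in the authors' deposited table. The FDR of PRDX6 was 1.12e-04 and that of TXN2 0.0447 in the same table. The others of the 18 peaks of that list did not pass, and the list's median was 0.0190. PGD, of the pentose phosphate pathway, was also lower, at -1.15, in the authors' deposited table. GSTP1 at 0.790, HK2 at 0.644, PGAM5 at 0.357 and FTH1 at 0.173 were higher in the same table. The fold enrichment was 1.70 for the GSTP1 peak, 1.51 for HK2 and 4.40 for FTH1, below the median of 12.4 for all peaks. That of PGAM5 was 64.5. The largest of these gains, those of GSTP1 and HK2, thus came from peaks little enriched over input. Passing the limit did not follow the size of the change: FTH1 passed at 0.173, while PIR, another NRF2 target of the lists, did not at -2.72. The part of transcript abundance in the share of 9.47% was not tested.

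Motifs of NRF2 were sought in the same RefSeq promoter table, which matched 7 of the 9 members with 9 windows of 250 bases; HMOX1 and SLC7A11 are named only. The 3 matches to the core of the antioxidant response element (TGACNNNGC, or GCNNNGTCA on the other strand) are shown with up to 30 flanking bases, 5′ to 3′ on the gene's strand, with the core in capitals. GCLM is chr1:93909431-93909494 on the minus strand, and the TXNRD1 runs are chr12:104215650-104215718 and chr12:104286900-104286968 on the plus strand (GRCh38.p14).
GCLM: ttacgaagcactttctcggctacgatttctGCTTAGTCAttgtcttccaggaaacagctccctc
TXNRD1 outer start: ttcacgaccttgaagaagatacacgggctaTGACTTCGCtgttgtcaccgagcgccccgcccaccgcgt
TXNRD1 inner start: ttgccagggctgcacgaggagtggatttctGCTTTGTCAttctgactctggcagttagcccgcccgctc
The core lay from -34 to -26 at GCLM, and from -99 to -91 and -102 to -94 at the TXNRD1 starts. It was present in 10.9% of the 35116 windows, and no match in a window says only that these letters were not in these 250 bases.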

How the data were processed

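RNA-seq and m7G immunoprecipitation values of DLD1 cells were taken as deposited, with 1 library in each of 6 groups. Per the submitters' processing notes, cutadapt 2.5, HISAT2 2.1.0, featureCounts 1.6.3, DESeq2, SAMtools 1.10 and HOMER 4.10.4 were used, with the builds GRCh38, hg38 and GRCm38, without roles. The m7G peak caller was not given in the sources used here. As expression values the authors deposited FPKM; for the input columns of the knockdown table this unit was inferred from the values. The authors also deposited log2 fold changes with p-values and adjusted p-values per gene, per the file headers. Their peak rows hold, per the file headers, a fold enrichment (a ratio), a log2 change, a score, positions, and the log10 of p-values and FDRs.

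With Python 3.11.15, pandas 2.3.3, numpy 2.4.6 and scipy 1.17.1, log2((FPKM + 1)/(FPKM + 1)) was computed for genes averaging 1 FPKM or more. Whole reads were recovered from the FPKM steps by writing each column ratio as a ratio of whole numbers (relative tolerance 1e-13). A solution was found for all 20806 co-culture and 9348 knockdown genes above 0 in both libraries. Nearly any ratio can be written so with large whole numbers, so that count is no check of the recovery. The effective library sizes behind the FPKM were 6215547 for S-CAFs-w13, 6337932 for DLD1-W13CM, 11625162 for knockdown input and 10454179 for control input. Gene lengths were whole numbers for 20745 and 9292 genes (relative tolerance 1e-11, with read numbers multiplied by up to 60), and 12 of 15 mitochondrial lengths equalled those of RefSeq. Without such a multiple, 76.7% of co-culture and 74.0% of knockdown lengths were whole, under a library size chosen to leave most lengths whole. The smallest whole reads these lengths allow gave exact (Clopper-Pearson) 95% intervals of folds, which hold counting error alone, because PCR duplicates are not separate molecules. True reads can be whole multiples of them, and totals of recovered reads carry this uncertainty. The recovery was tested on simulated data.

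Members and lists were chosen with earlier results of these data known. Named were the members; in each list the genes past 2-fold (at most 6) and the 3 with the highest mean FPKM; the 5 genes nearest to TXNIP; and METTL1. Other pseudocounts, filters and scalings were tried.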

Additional observations from a re-analysis of the deposited data

How the results depend on the processing

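The number of members past 2-fold was 1 in the co-culture and 0 in the knockdown under every alternative run. The members' median log2 ratio in the co-culture, -0.10, was -0.26 with the authors' log2 fold changes and -0.32 without mitochondrial genes. In the knockdown, 1 list gene, MSRB2, was past 2-fold with a pseudocount of 0.1 FPKM and with the authors' log2 fold changes, against 0 otherwise. Of the members' m7G changes, 2 passed a p-value of 0.05 and 1 an FDR of 0.1, against 0 at an FDR of 0.05. Of 480 alternative values of single genes' log2 ratios, 403 moved by less than counting error or not at all. Alternatives that changed only the filter on low values could not move a gene's ratio, and their values are among the 403. Of the rest, 68 moved further and 9, those of CHAC1, TKT and UGDH, were no longer past 2-fold. The authors' scaling placed the median of all co-culture genes at -0.12 and the removal of mitochondrial genes at -0.15, where 923 genes rose and 1614 fell. With the authors' log2 fold changes 1673 rose and 2381 fell in the co-culture, and 111 and 132 in the knockdown; a pseudocount of 0.1 FPKM gave 103 and 112 there, and a mean of at least 5 FPKM gave 7 and 16 and left out ARRDC4, GCLM and SLC7A11. The m7G change minus the input log2 ratio was not run, because the table does not state whether the change is already divided by input. No paired analysis was possible because each group had 1 library. With SRXN1 at 5 to 12 reads a library, the depth cannot show a change of its size.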

Other observations

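The 2 tables were normalized separately and come from cells cultured under different conditions, so levels set across them are a description. SLC7A11 averaged 5.00 times as much FPKM in the co-culture table as in the knockdown table, with ratios of single libraries from 4.25 to 6.07, above those of 99.3% of 7945 genes measured in both. GCLM was 3.61 times as high (3.23 to 4.02, above 98.6% of genes), NQO1 2.59 times (2.22 to 3.05, above 96.3%) and TXNRD1 1.93 times (1.47 to 2.41, above 91.6%). HMOX1 and TXN did not share this, at 0.852 and 0.914 times, with single-library ratios on either side of 1. Ratios of single libraries spanned 0.848 to 6.37 for TXNIP and 0.838 to 1.55 for ARRDC4. The median log2 ratio of all genes between the tables was -0.31, with a 5th to 95th percentile range of -2.02 to 1.21.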
